A study of Mus musculus with 12 samples.

Results

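The genes described here are 8 genes known from platelets and from megakaryocytes, the large marrow and lung cells that shed platelets: Ppbp, Pf4, Gp9, Gp6, Gp5, Gp1ba, Treml1 and Clec1b. A gene was taken where the platform annotation pairs a probe with its symbol alone, and where several probes did so the brightest on average was to be used. That held for 7 of the 8 genes, out of 22180 genes measured in this way, each of the 7 with 1 such probe. No probe was paired with Gp1ba alone, and it was not analysed here. RNA of lung tissue was measured on 12 one-colour arrays, 1 array per female mouse of 10 weeks, with 3 mice in each of 4 groups: Zmpste24-/- mice ventilated mechanically, Zmpste24-/- mice left intact (baseline), wild type mice ventilated and wild type mice left intact. Zmpste24 is the protease that completes lamin A maturation, and both alleles were lost in the Zmpste24-/- mice. Ventilation ran for 2.5 hours in room-air oxygen (inspired fraction 0.21), with 15 cmH2O on inspiration, zero pressure at the end of expiration and 100 breaths a minute. The labels name neither the strain nor the deleted stretch of Zmpste24, and no label restricts the deletion to a cell type or pools animals.

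Platelets have no nucleus and carry RNA that they received from the megakaryocyte. They keep the chemokines encoded by Pf4 and Ppbp in alpha granules and release them on activation. Their surface holds the GPIb-IX-V complex, which catches von Willebrand factor, the collagen receptor GPVI and the podoplanin receptor CLEC-2. In mice, megakaryocytes lodged in the lung vessels release platelets there, and circulating platelets add to the RNA of a lung that was not flushed of blood.

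All values below are deposited log2 expression values, and 1 unit is a doubling. Array medians lay between 5.35 and 5.42, and arrays of 1 group correlated at 0.986 to 0.992 over all probes. Zmpste24 lay between 5.01 and 5.91 in the 6 Zmpste24-/- arrays, against 8.50 to 9.28 in the 6 wild type arrays. The lung markers fixed for the label check were high, with group means of the surfactant gene Sftpc of 13.2 in Zmpste24-/- ventilated, 13.2 in Zmpste24-/- baseline, 13.2 in wild type ventilated and 13.1 in wild type baseline lungs. Wild type baseline array 2 stood apart in the liver transcript Mup20, at 10.05 against 2.88 to 6.44 in the other arrays. Differences were tested with limma on all 22180 genes, and an adjusted p (Benjamini-Hochberg over all genes) under 0.05 counted as passing. No background level was set, and 3 arrays per group limit the precision. The p-values measure the spread between mice.

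Ppbp, which encodes the precursor of the neutrophil-attracting chemokine CXCL7, was the member with the largest difference between genotypes. It read 8.17, 7.97 and 8.31 in Zmpste24-/- ventilated lungs, against 9.04, 9.64 and 9.93 in wild type ventilated lungs. It read 8.37, 8.31 and 8.22 in Zmpste24-/- baseline lungs, against 9.57, 9.57 and 9.76 in wild type baseline lungs. All 6 Zmpste24-/- arrays lay below all 6 wild type arrays, and the most variable group was wild type ventilated, where array 1 was the lowest of the wild type. The genotype difference in Ppbp was -1.38 ± 0.17 under ventilation (log2 difference ± standard error, n = 3 per group, limma adjusted p = 0.000336), a level 0.383 times that of wild type. At baseline the difference in Ppbp was -1.33 ± 0.17 (adjusted p = 0.000946), or 0.398 times wild type. Without wild type baseline array 2 it was -1.36 (adjusted p = 0.00437). The difference between the genotype effects under ventilation and at baseline was -0.05 (95% interval -0.58 to 0.47, limma adjusted p = 0.963). In lung tissue as a whole, fewer platelets or megakaryocytes and less RNA per cell cannot be told apart. Neither ventilation difference of Ppbp passed, with -0.15 ± 0.17 in Zmpste24-/- lungs (adjusted p = 0.665) and -0.10 ± 0.17 in wild type lungs (adjusted p = 0.82).

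**Figure D1:**
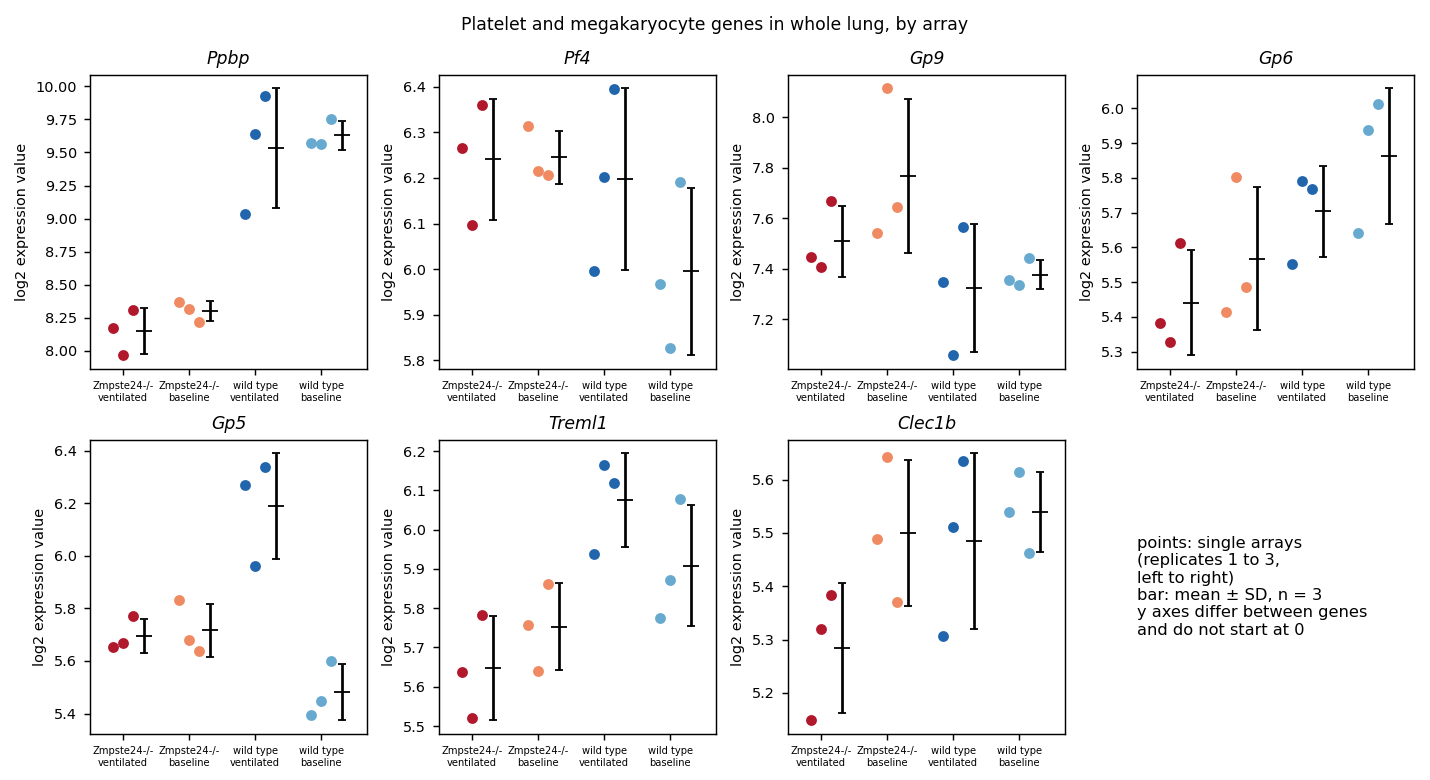
Log2 expression values of the 7 measured genes by array (points, replicates 1 to 3 from left to right), with the mean and SD of each group beside them (n = 3). The Zmpste24-/- groups stand left of the wild type groups, and the vertical axes differ between genes and do not start at 0. Ppbp lies between 7.97 and 8.37 in the 6 Zmpste24-/- arrays, and Gp5 is highest in the 3 wild type ventilated arrays.

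Pf4, which encodes platelet factor 4 (CXCL4), the heparin-binding chemokine of the same granules, did not share that difference. It read 6.27, 6.10 and 6.36 in Zmpste24-/- ventilated lungs, against 6.00, 6.20 and 6.40 in wild type ventilated lungs. It read 6.31, 6.22 and 6.21 in Zmpste24-/- baseline lungs, against 5.97, 5.83 and 6.19 in wild type baseline lungs. The ventilated groups overlapped, while at baseline the 3 Zmpste24-/- arrays were all above the wild type arrays by a small margin. Neither genotype difference in Pf4 passed: 0.04 under ventilation (95% interval -0.21 to 0.29, adjusted p = 0.871) and 0.25 at baseline (interval -0.00 to 0.50, adjusted p = 0.241). Group means of Pf4 ran from 6.00 to 6.25, not far above the array medians. The ventilation difference of Pf4 was -0.00 ± 0.12 in Zmpste24-/- lungs and 0.20 ± 0.12 in wild type lungs, and neither passed (adjusted p = 0.988 and 0.368).

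The log2 value of Ppbp minus that of Pf4 in each array is given as a description. No p-value is given for it, since the pair was chosen after the values had been seen. This difference averaged 1.91 ± 0.04 in Zmpste24-/- ventilated lungs (SD, n = 3), against 3.34 ± 0.26 in wild type ventilated lungs. It averaged 2.05 ± 0.04 in Zmpste24-/- baseline lungs, against 3.64 ± 0.09 in wild type baseline lungs. All 6 Zmpste24-/- arrays, at 1.87 to 2.10, lay below all 6 wild type arrays, at 3.04 to 3.74.

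Within groups the same genes varied together. After each group mean was taken away, Ppbp and Pf4 correlated over the 12 arrays with Pearson's r = 0.87 and Spearman's rho = 0.94. The two-sided exact permutation p, with arrays exchanged within groups only, was 0.000772 for both, the smallest that the 1296 arrangements can give, and 0.0162 after adjustment over the 21 pairs of members. Without the 2 arrays farthest from the median of Ppbp, r was 0.85. No other pair passed the adjustment. The next highest r were 0.71 for Pf4 with Treml1 (exact permutation p = 0.0471, adjusted p = 0.263) and 0.61 for Ppbp with Treml1 (exact permutation p = 0.0401, adjusted p = 0.263). Of the 21 pairs 19 had r above 0, with a median of 0.42, and all pairs share the array and its normalization.

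**Figure D2:**
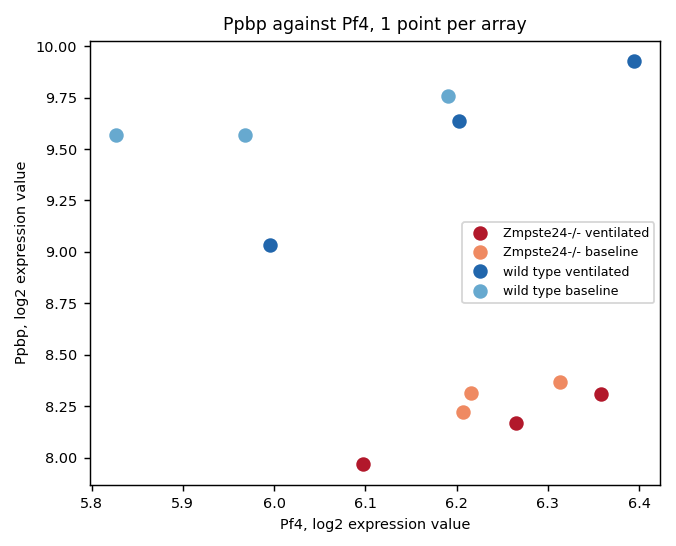
Ppbp (vertical axis) against Pf4 (horizontal axis), both as log2 expression values, 1 point per array in 4 groups. The 6 Zmpste24-/- arrays lie at 7.97 to 8.37 for Ppbp and the 6 wild type arrays at 9.04 to 9.93, over an overlapping range of Pf4, and in each of the 4 groups the array with the most Pf4 has the most Ppbp.

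Ppbp and Pf4 are neighbours on mouse chromosome 5 in the RefSeq gene table, with 2372 bases and no other gene between them. The 250 bases before each start are shown because Ppbp passed the genotype test and its neighbour Pf4 did not, together with those of Gp5, the member that passed the ventilation test. Capitals mark the motifs GATAA (the letters read by GATA factors, of which GATA1 drives megakaryocyte genes) and AGGAAG (a form read by ETS factors such as FLI1), searched on both strands as GATAA or TTATC and as AGGAAG or CTTCCT; no matches overlap in the windows shown. The sequences are those of RefSeq in build GRCm38.p6, printed 5′ to 3′ on the gene's strand.
Ppbp, chr5:90768268-90768517, plus strand: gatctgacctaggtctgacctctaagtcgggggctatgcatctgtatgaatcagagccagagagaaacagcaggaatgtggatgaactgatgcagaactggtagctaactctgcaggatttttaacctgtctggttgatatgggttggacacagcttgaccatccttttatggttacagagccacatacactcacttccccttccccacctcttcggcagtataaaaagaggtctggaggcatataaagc
Pf4, chr5:90772185-90772434, plus strand: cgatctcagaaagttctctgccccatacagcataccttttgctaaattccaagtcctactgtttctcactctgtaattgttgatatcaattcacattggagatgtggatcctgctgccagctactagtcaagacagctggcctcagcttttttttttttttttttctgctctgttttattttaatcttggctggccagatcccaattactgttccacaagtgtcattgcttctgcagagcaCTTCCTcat
Gp5, chr16:30310782-30311031, minus strand: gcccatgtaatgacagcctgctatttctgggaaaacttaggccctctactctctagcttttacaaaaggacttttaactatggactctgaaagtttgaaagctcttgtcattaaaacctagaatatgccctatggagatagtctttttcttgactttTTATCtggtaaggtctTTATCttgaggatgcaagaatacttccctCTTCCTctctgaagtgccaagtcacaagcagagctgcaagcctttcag
The Ppbp window held 0 matches of either motif, the Pf4 window 1 match of AGGAAG, and the Gp5 window 2 matches of GATAA and 1 of AGGAAG. All 8 genes had a promoter in the table: GATAA was in 5 of these 8 windows (Gp9, Clec1b, Gp6, Gp1ba and Gp5) and AGGAAG in 4 (Pf4, Gp9, Gp1ba and Gp5). Over all 32851 windows of the same length, 22.6% held GATAA and 29.5% held AGGAAG. A match describes letters only.

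Gp5 encodes glycoprotein V, the subunit of the GPIb-IX-V complex that thrombin cleaves, and was the member that changed with ventilation. It read 6.27, 5.96 and 6.34 in wild type ventilated lungs, against 5.39, 5.45 and 5.60 in wild type baseline lungs. It read 5.65, 5.67 and 5.77 in Zmpste24-/- ventilated lungs, against 5.83, 5.68 and 5.64 in Zmpste24-/- baseline lungs. The wild type groups did not overlap and the Zmpste24-/- groups did. Gp5 rose by 0.71 ± 0.10 after ventilation in wild type lungs (limma adjusted p = 0.00121), or 1.63-fold. In Zmpste24-/- lungs its ventilation difference was -0.02 ± 0.10 (95% interval -0.24 to 0.20, adjusted p = 0.939).

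Between genotypes, Gp5 was lower in Zmpste24-/- than in wild type lungs after ventilation, by -0.49 ± 0.10 (limma adjusted p = 0.00852). At baseline all 3 Zmpste24-/- arrays were above the 3 wild type arrays, by 0.24 ± 0.10, which did not pass (adjusted p = 0.213). Both differences that passed rest on the same 3 wild type ventilated arrays. The difference between the ventilation effects of the genotypes was -0.73 ± 0.15 (unadjusted p = 0.000231), and it missed the threshold with an adjusted p of 0.0575. Without wild type ventilated array 2 it was -0.84 and passed (adjusted p = 0.0336), and over its 20 alternatives the adjusted p ran from 0.0336 to 0.153. The mean of Gp5 in wild type baseline lungs, 5.48, lay near the array medians over all probes. Its mean over the 12 arrays lay under the median of the 22180 genes. The gene nearest to Gp5 in the RefSeq table is Atp13a3, 1642 bases away, and no gene overlaps Gp5.

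**Figure D3:**
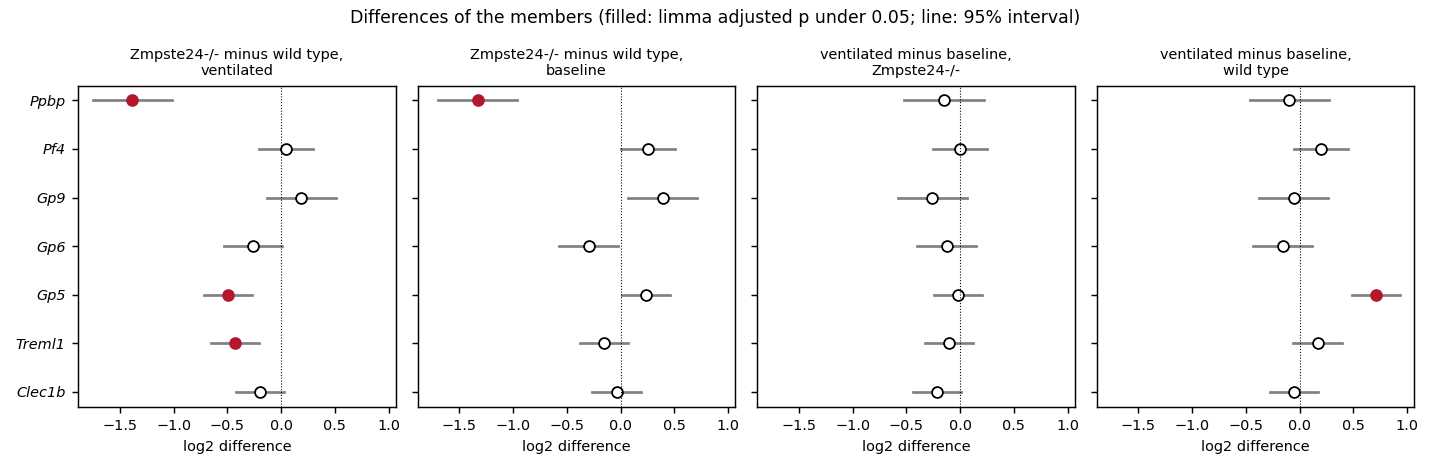
Log2 differences (horizontal axes) of the 7 measured genes in the 4 pairwise comparisons, Zmpste24-/- minus wild type on the left and ventilated minus baseline on the right (points, with 95% intervals as lines). Filled points passed a limma adjusted p of 0.05: Ppbp in both genotype comparisons, Gp5 and Treml1 in the genotype comparison under ventilation, and Gp5 after ventilation in wild type lungs.

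Gp9 encodes glycoprotein IX of the same GPIb-IX-V complex, without which the complex is poorly displayed on the platelet. It read 7.45, 7.41 and 7.67 in Zmpste24-/- ventilated lungs, against 7.35, 7.06 and 7.56 in wild type ventilated lungs. It read 7.54, 8.12 and 7.65 in Zmpste24-/- baseline lungs, against 7.35, 7.33 and 7.44 in wild type baseline lungs. At baseline every Zmpste24-/- array was above every wild type array, with Zmpste24-/- array 2 the highest of all 12, and the ventilated groups overlapped. The baseline genotype difference of Gp9 was 0.39 ± 0.15 (95% interval 0.07 to 0.71) and did not pass (limma adjusted p = 0.146). Under ventilation it was 0.19 ± 0.15 (adjusted p = 0.497). Its ventilation differences were -0.26 ± 0.15 in Zmpste24-/- lungs and -0.05 ± 0.15 in wild type lungs, neither of which passed (adjusted p = 0.299 and 0.894). Within the complex, then, Gp5 and Gp9 gave different calls in the same arrays, and that difference was not tested.

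Treml1 encodes TLT-1, a granule membrane receptor that moves to the surface of activated platelets and binds fibrinogen. It read 5.64, 5.52 and 5.78 in Zmpste24-/- ventilated lungs, against 5.94, 6.17 and 6.12 in wild type ventilated lungs. It read 5.76, 5.64 and 5.86 in Zmpste24-/- baseline lungs, against 5.78, 5.87 and 6.08 in wild type baseline lungs. The genotypes did not overlap under ventilation and did at baseline. Treml1 was lower in Zmpste24-/- ventilated than in wild type ventilated lungs by -0.43 ± 0.11 (limma adjusted p = 0.0188), or 0.743 times wild type, and by -0.16 ± 0.11 at baseline, which did not pass (adjusted p = 0.444). The call under ventilation was lost (adjusted p of 0.0807 and 0.0693) on leaving out array 2 or 3 of the ventilated wild type, without Zmpste24-/- ventilated array 1 or 2 (0.0555 and 0.0811) and with the values quantile normalized again (0.0512), over a range of 0.0125 to 0.0811 in 15 alternatives. Neither ventilation difference passed, with -0.11 ± 0.11 in Zmpste24-/- lungs and 0.17 ± 0.11 in wild type lungs (adjusted p = 0.608 and 0.419).

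Both activating receptors that signal through Syk gave no call. Gp6, which encodes the collagen receptor GPVI, ranged from 5.33 to 5.61 in Zmpste24-/- ventilated, from 5.41 to 5.80 in Zmpste24-/- baseline, from 5.55 to 5.79 in wild type ventilated and from 5.64 to 6.01 in wild type baseline lungs. The genotype differences of Gp6 were -0.26 under ventilation (95% interval -0.54 to 0.01, limma adjusted p = 0.223) and -0.30 at baseline (interval -0.57 to -0.02, adjusted p = 0.202). Clec1b, which encodes CLEC-2, ranged from 5.15 to 5.38 in Zmpste24-/- ventilated, from 5.37 to 5.64 in Zmpste24-/- baseline, from 5.31 to 5.63 in wild type ventilated and from 5.46 to 5.61 in wild type baseline lungs. Its largest difference was -0.22 ± 0.10 after ventilation in Zmpste24-/- lungs (adjusted p = 0.202). The group means of both genes, 5.28 to 5.86, lay at or near the array medians. Clec1b overlaps the span of Clec12b in the RefSeq table, and signal of overlapping genes may not be separable here.

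Counted together, 3 of the 7 measured genes passed between genotypes under ventilation, all lower in Zmpste24-/- lungs (Ppbp, Gp5 and Treml1), where 10.8% of all genes passed (4.72% higher and 6.08% lower). At baseline 1 of 7 passed, Ppbp, which was lower, where 6.31% of all genes passed (2.2% higher and 4.11% lower). After ventilation 0 of 7 passed in Zmpste24-/- lungs in the limma fit, and 0 had an unadjusted p under 0.05, where 16.4% of all genes passed (8.89% higher and 7.52% lower). In wild type lungs 1 of 7 passed after ventilation, Gp5, which was higher, where 7.2% of all genes passed (3.67% higher and 3.53% lower). For the difference between the ventilation effects 0 of 7 passed, against 0.316% of all genes (0.266% higher and 0.0496% lower), and 1 of the 7, Gp5, had an unadjusted p under 0.05. The median difference of the 7 genes was -0.26 between genotypes under ventilation (0.01 over all genes) and -0.04 at baseline (-0.01 over all genes). It was -0.13 after ventilation in Zmpste24-/- lungs and -0.05 in wild type lungs, where the medians of all genes were -0.01 and -0.01.

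Ranked by group mean, Ppbp ran from wild type baseline to wild type ventilated, Zmpste24-/- baseline and Zmpste24-/- ventilated, and the step between wild type ventilated and Zmpste24-/- baseline alone passed (limma adjusted p = 0.000618). Gp5 ran from wild type ventilated to Zmpste24-/- baseline, Zmpste24-/- ventilated and wild type baseline, and its first step alone passed (limma adjusted p = 0.00999). In Pf4, Gp9, Gp6, Treml1 and Clec1b no neighbouring groups in the order of means differed past the threshold. The mean of the 7 genes, each centred on its own mean, was -0.19 ± 0.12 in Zmpste24-/- ventilated, -0.06 ± 0.07 in Zmpste24-/- baseline, 0.18 ± 0.17 in wild type ventilated and 0.07 ± 0.10 in wild type baseline lungs (SD, n = 3). Without Ppbp the mean was -0.09 ± 0.11 in Zmpste24-/- ventilated, 0.03 ± 0.08 in Zmpste24-/- baseline, 0.10 ± 0.12 in wild type ventilated and -0.04 ± 0.09 in wild type baseline lungs.

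Further platelet receptors and signalling genes, of which 17 of 21 listed were measured, were mostly not called. Between genotypes 5 were lower and 0 higher under ventilation, where 6.08% of all genes were lower and 4.72% higher. At baseline 4 were lower and 0 higher, where 4.11% of all genes were lower and 2.2% higher. The collagen-binding integrin subunit Itga2 was lower in Zmpste24-/- lungs in both conditions (-0.54 ± 0.12 under ventilation and -0.63 ± 0.12 at baseline), as were the integrin activator Fermt3 (-0.40 ± 0.11 and -0.46 ± 0.11) and the phospholipase Plcg2, which acts below GPVI and CLEC-2 (-0.37 ± 0.10 and -0.42 ± 0.10). The ADP receptor P2ry12 (-0.57 ± 0.16, with overlapping arrays) and the cation channel Trpc6 (-0.49 ± 0.11) were lower under ventilation, and the adaptor Lcp2 (-0.62 ± 0.13) was lower at baseline. The difference between conditions passed for none of these 3 genes (limma interaction adjusted p = 0.403, 0.661 and 0.384). The counts changed on leaving out 1 array: the 5 became 0 without wild type ventilated array 3 or Zmpste24-/- ventilated array 1, and the 4 became 1 without wild type baseline array 1 or 2 or Zmpste24-/- baseline array 3. The differences stayed negative: without wild type ventilated array 3 they were -0.46 for Itga2, -0.42 for Fermt3, -0.38 for Plcg2, -0.47 for P2ry12 and -0.48 for Trpc6. Over all genes the number that passed under ventilation also varied, from 1369 to 2510. The median difference of the list was -0.18 under ventilation and -0.27 at baseline. Itga2b and Itgb3, which form the fibrinogen receptor of platelets, passed in none of the 4 comparisons, with genotype differences of -0.06 and -0.14 under ventilation and 0.19 and -0.15 at baseline. Fermt3, Plcg2 and Lcp2 also act in leukocytes. Group means were 8.24 to 8.89 for Itga2 and 8.16 to 8.96 for Trpc6, against 6.13 to 6.33 for Itga2b and 5.95 to 6.52 for P2ry12. Which cells gave any of these calls was not tested. After ventilation 1 of these 17 genes passed in Zmpste24-/- lungs, Trpc6 (-0.54 ± 0.11), where 16.4% of all genes passed. In wild type lungs 0 passed, against 7.2% of all genes. This 0 became 1 lower on leaving out array 3 of the baseline or array 1 of the ventilated wild type.

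Of granule, enzyme and cytoskeleton genes 15 of 17 were measured, and 0 passed between genotypes under ventilation, against 1 at baseline (Nbeal2, needed to form alpha granules, at -0.40 ± 0.09). Of all genes 10.8% and 6.31% passed in these comparisons. The 0 became 2 lower without Zmpste24-/- ventilated array 1, and the 1 at baseline ran from 0 to 2 with 1 array left out. Thbs1, which encodes the adhesive granule protein thrombospondin-1 and is also made by many stromal cells, rose after ventilation in both genotypes. It read 11.95, 12.24 and 12.37 in Zmpste24-/- ventilated lungs, against 9.49, 9.93 and 8.99 in Zmpste24-/- baseline lungs, a rise of 2.71 ± 0.19 (limma adjusted p = 1.75e-06). In wild type lungs it read 11.93, 11.55 and 11.54 after ventilation, against 9.85, 10.07 and 9.98 at baseline, a rise of 1.70 ± 0.19 (adjusted p = 0.000219). Slc2a3 (0.56 ± 0.09), Clu (0.45 ± 0.12) and Srgn (0.36 ± 0.10) also rose in Zmpste24-/- lungs, 4 of 15 in all, where 8.89% of all genes were higher. The 4 became 2 without Zmpste24-/- baseline array 3 or ventilated array 2. In wild type lungs Thbs1 was the 1 gene higher and Nbeal2 (-0.37 ± 0.09) the 1 lower, against 3.67% and 3.53% of all genes. Nbeal2 lost both its calls without wild type baseline array 2 (adjusted p = 0.061 for genotype and 0.0711 for ventilation) or array 1 (0.0514 and 0.0564). It also lost the genotype call without Zmpste24-/- baseline array 3 (0.095), and the ventilation call without wild type baseline array 3 (0.0553) or wild type ventilated array 2 (0.0911) or 3 (0.0775). Tubb1, the platelet form of beta-tubulin, passed in none of the 4 comparisons, with genotype differences of -0.18 under ventilation and -0.00 at baseline.

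Of megakaryocyte transcription factors and signals 12 of 13 were measured. Gata1, Nfe2 and Gfi1b, factors of the megakaryocyte and red cell lineages, had genotype differences of -0.08, 0.03 and -0.03 under ventilation and 0.02, 0.02 and -0.06 at baseline, and none passed. Group means of Gata1 lay between 4.40 and 4.48 and those of Nfe2 between 4.80 and 4.89, under the array medians. Genes of the list that passed were Mef2c (-0.75 ± 0.11) and Cxcl12 (-0.53 ± 0.12), lower in Zmpste24-/- ventilated than in wild type ventilated lungs and also at baseline (-0.58 ± 0.11 and -0.47 ± 0.12). Between genotypes 0 genes of the list were higher, which became 1 under ventilation without wild type or Zmpste24-/- ventilated array 1. After ventilation Il6 (2.17 ± 0.30) and Runx1 (0.56 ± 0.14) rose in Zmpste24-/- lungs, while Cxcl12 (-0.66 ± 0.12), Meis1 (-0.50 ± 0.14) and Mef2c (-0.43 ± 0.11) fell. In wild type lungs Meis1 (-0.85 ± 0.14) and Cxcl12 (-0.60 ± 0.12) fell and 0 rose. All of these are also made by other lung cells. Of all genes 10.8% passed between genotypes under ventilation and 6.31% at baseline. After ventilation 16.4% passed in Zmpste24-/- lungs and 7.2% in wild type lungs. The fall of Meis1 in Zmpste24-/- lungs was lost without any 1 of the 6 arrays compared (adjusted p = 0.054 to 0.091). The rise of Runx1 was lost without Zmpste24-/- baseline array 3 (0.0501) or ventilated array 3 (0.0669), and the fall of Mef2c without Zmpste24-/- baseline array 1 (0.0507) or 2 (0.053) or ventilated array 1 (0.0677). The genotype call of Cxcl12 was lost under ventilation without wild type array 2 (0.0508) or Zmpste24-/- array 2 (0.0527) or 3 (0.0579), and at baseline without any 1 of the 6 arrays except Zmpste24-/- array 1 (0.0659 to 0.105).

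**Figure D4:**
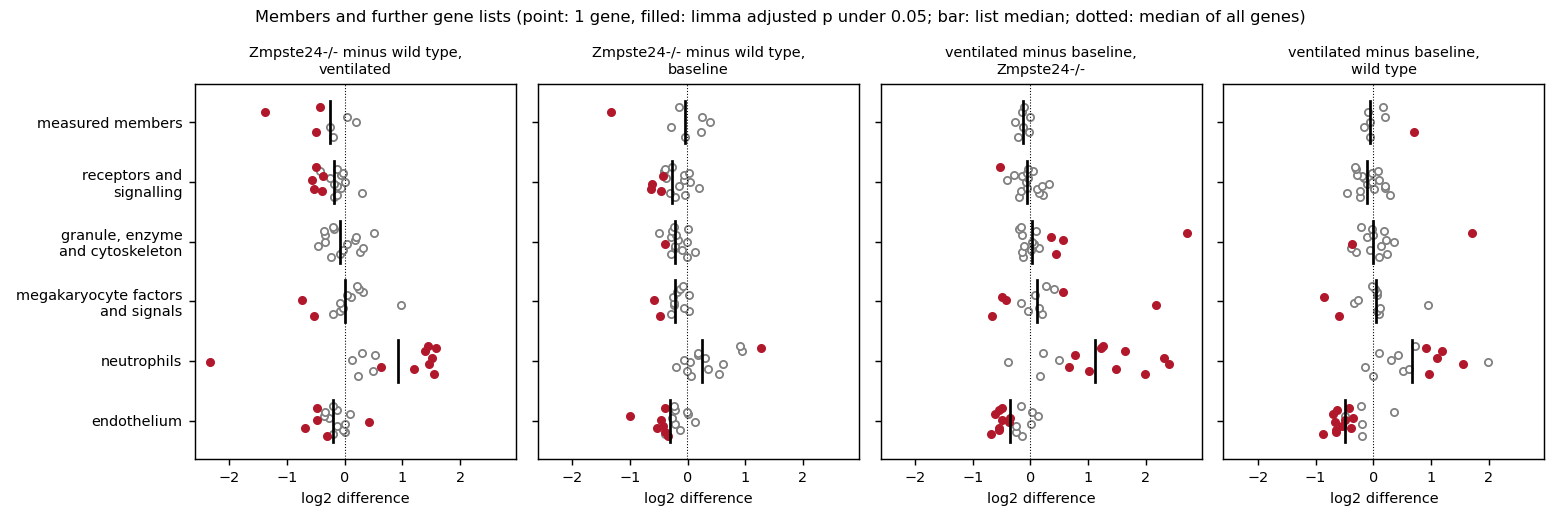
Log2 differences (horizontal axes) of single genes (points) in the 7 measured platelet genes, 3 further platelet and megakaryocyte lists, neutrophil genes and endothelial genes, for the 4 pairwise comparisons. Filled points passed a limma adjusted p of 0.05, the bar is the list median and the dotted line the median of all genes. The neutrophil median lies right of the other medians in all 4 panels, and the endothelial median lies at -0.20 and -0.31 between genotypes and at -0.36 and -0.49 after ventilation.

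Markers of other blood and vessel cells also moved with the groups. Of 14 measured neutrophil genes, 8 were higher and 1 lower in Zmpste24-/- than in wild type ventilated lungs, against 4.72% and 6.08% of all genes. At baseline 1 was higher, against 2.2% of all genes. The 1 lower, Ltf, passed only in the full set or without wild type ventilated array 3, and the 1 at baseline became up to 5 without wild type baseline array 1 or Zmpste24-/- baseline array 3. After ventilation 10 were higher in Zmpste24-/- lungs and 5 in wild type lungs, against 8.89% and 3.67% of all genes. The 5 became 2 without wild type baseline array 2 or wild type ventilated array 1 or 3. The summed level of the 14 on the linear scale was 4571 to 5075 in Zmpste24-/- ventilated and 1332 to 2315 in Zmpste24-/- baseline lungs, against 2016 to 3312 in wild type ventilated and 1212 to 1705 in wild type baseline lungs. Clec4d (1.55 ± 0.17), Il1r2 (1.46 ± 0.27), Mmp8 (1.51 ± 0.27) and Retnlg (1.39 ± 0.30) were among those higher under ventilation, the opposite direction to Ppbp. Of 16 endothelial genes, 4 were lower and 1 higher in Zmpste24-/- than in wild type ventilated lungs, against 6.08% and 4.72% of all genes. At baseline 7 were lower, against 4.11% of all genes. Summed levels of the 16 were 12653 to 15107 and 15980 to 17534 in ventilated and baseline Zmpste24-/- lungs, against 15658 to 16759 and 21213 to 22693 in ventilated and baseline wild type lungs. The 4 became 2 without wild type ventilated array 2 or 3 or Zmpste24-/- ventilated array 3, the 1 became 0 without any 1 of the 6 arrays, and the 7 became 3 without wild type baseline array 2 or Zmpste24-/- baseline array 1 or 3. After ventilation 9 endothelial genes fell in Zmpste24-/- lungs (6 without baseline array 3) and 11 in wild type lungs (8 without baseline array 2 or ventilated array 1 or 3). Of all genes 7.52% and 3.53% fell in these comparisons. The endothelial glycoprotein Emcn was lower by -0.69 ± 0.10 under ventilation and -0.53 ± 0.10 at baseline.

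Of 17 red cell genes 7 were measured, none of them a globin. Bpgm, a glycolytic enzyme of red cells, was the 1 that differed between genotypes, higher by 0.50 ± 0.12 under ventilation, where 4.72% of all genes were higher. At baseline 0 passed, against 6.31% of all genes. The call of Bpgm was lost without wild type ventilated array 1 (adjusted p = 0.059) or Zmpste24-/- ventilated array 3 (0.0816). The summed level of the 7 was 641 to 743 in Zmpste24-/- ventilated and 652 to 795 in Zmpste24-/- baseline lungs, against 484 to 554 in wild type ventilated and 711 to 843 in wild type baseline lungs. Bpgm and Fech were the brightest genes in this sum, with log2 group means of 7.24 to 7.90 and 7.77 to 8.27. Slc4a1 passed in no comparison. Its ventilation differences were -0.94 ± 0.27 in wild type (limma adjusted p = 0.055) and 0.18 ± 0.27 in Zmpste24-/- lungs. Its genotype differences were 0.64 ± 0.27 under ventilation (adjusted p = 0.165) and -0.48 ± 0.27 at baseline. In wild type lungs Bpgm (-0.66 ± 0.12) and Fech (-0.50 ± 0.10) fell after ventilation, the comparison in which Gp5 rose and 3.53% of all genes fell. Of 11 genes of granulocyte and marrow progenitors, Cd34 was lower in Zmpste24-/- lungs in both conditions (-0.76 ± 0.11 and -0.42 ± 0.11) and is also an endothelial gene, and Chil3, also a macrophage gene, was higher under ventilation (0.81 ± 0.23). Of all genes 6.08% were lower and 4.72% higher under ventilation, and 4.11% were lower at baseline. Cd34 lost its baseline call without any 1 array except Zmpste24-/- array 1 (0.0505 to 0.109), and Chil3 its call without wild type ventilated array 3 (0.148) or Zmpste24-/- ventilated array 1 (0.152) or 3 (0.0676). After ventilation 2 of the 11 fell in Zmpste24-/- lungs, Kit (-0.79 ± 0.15) and Cd34 (-0.61 ± 0.11). In wild type lungs 1 fell, Kit (-0.76 ± 0.15). Both counts of the list stayed the same with any 1 array left out, and 7.52% and 3.53% of all genes fell. The summed level of the 11 was 3672 to 4502 in Zmpste24-/- ventilated and 3863 to 4269 in Zmpste24-/- baseline lungs, against 3211 to 3795 in wild type ventilated and 3934 to 4696 in wild type baseline lungs. On the linear scale the brightest genes weigh most in this sum, among them Chil3 and Cd34, with log2 group means of 10.26 to 11.07 and 9.25 to 10.28. The granule genes Mpo, Elane, Prtn3, Ctsg and Ms4a3, which mark immature granulocytes, passed in no comparison. Low signal limits this result: group means of Mpo, Elane, Ctsg and Ms4a3 lay between 4.30 and 4.95, under the array medians. Those of Prtn3 lay near the medians, at 5.27 to 5.60. The part of any of these cells in the results on Ppbp, Gp5 and Treml1 was not tested.

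Outside the set, the named genes whose values followed the mean of the 7 genes most closely over the 12 arrays were Wdr13, Tmem117 and Itga9, each at r = 0.92, followed by Olfr550 (0.91), Panx1 and Olfr195 (both 0.89), Atp11a and Dtl (both 0.89), and Ndnf and Nhlrc3 (both 0.88). After group means were taken away the first 3 were Olfr1426 (0.95), Cep85 (0.93) and Prpf6 (0.92). No gene of the further platelet lists was among the first 10 by either measure. These are the highest over all other genes with an established name, the 12 arrays share their normalization, and the values are a description.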

How the data were processed

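Per the labels' protocols, an Affymetrix kit was used to label 100 ng of Trizol-extracted RNA from each lung. The authors deposited log2 expression values. The submitters' processing notes list RMA and limma without a version. That the values are log2 was read off their range. Of 41345 probes, 23521 had 1 gene symbol, 1814 several and 16010 none, and symbols were updated through RefSeq (GRCm38.p6) for 23328. The probe with the highest mean stood for each of 22180 genes. Values were not normalized again. One linear model with group means for the 12 arrays, leaving 8 residual degrees of freedom, was run with limma (version 3.58.1, R 4.3.3), moderated by eBayes and tested on simulated data. Exact permutations and figures used Python 3.11.15, scipy 1.17.1 and matplotlib 3.10.9.

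The members, lists and tests were chosen with earlier results of these data known. Named by rule were the members, up to 4 genes per list with the smallest adjusted p, every further platelet list gene that passed, and the 10 genes most like the members' mean. Not all genes under the rule were printed: of the endothelial genes Emcn was, while Cldn5, Egfl7 and Tie1 were not. Itga2b, Itgb3, Tubb1, Gata1, Nfe2, Gfi1b, Sftpc, Mup20, Ltf and marrow granule genes were named outside the rule. No scan dates or slides were at hand, and array batches were not tested. An exact permutation of 3 against 3 arrays cannot give a p below 0.1. Alternatives were 2 filters on low values, 2 further normalizations, the mean of a gene's probes, all probes, 2 variance models, a replicate block, the compared groups alone and leaving out each array.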

Additional observations from a re-analysis of the deposited data

Results flagged for a closer look

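Gp5 drew attention because its arrays lay on opposite sides of wild type in the intact and the ventilated lungs, although the baseline difference of 0.24 ± 0.10 did not pass (limma adjusted p = 0.213). At baseline the 3 Zmpste24-/- arrays (5.83, 5.68 and 5.64) were all above the 3 wild type arrays (5.39, 5.45 and 5.60), and after ventilation the 3 Zmpste24-/- arrays (5.65, 5.67 and 5.77) were all below the 3 wild type arrays (6.27, 5.96 and 6.34). The difference between these effects was -0.73 ± 0.15 on the log2 scale, with a limma p of 0.000231 and an adjusted p of 0.0575 over all genes. The groups hold 3 arrays each, so no array was tested as an outlier of its group.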

How the results depend on the processing

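Of 575 results of single members under the alternatives, 568 kept their side of the threshold, 5 lost a call (all Treml1 under ventilation between genotypes), 2 gained one (Gp5 in the interaction) and 0 reversed a called direction. Ppbp passed between genotypes in all 16 alternatives at baseline and all 16 under ventilation, and Gp5 in all 15 that held it, both for ventilation in wild type lungs and for genotype under ventilation. With genes under the median left out, 3 of 7 members remained in the test, and the members past the threshold numbered 0 for ventilation in wild type lungs and 1 for genotype under ventilation because Gp5 and Treml1 were no longer tested. With genes under the 25th percentile left out 1 member, Gp5, passed the interaction (adjusted p = 0.0492). With 1 array left out, the members past the threshold numbered 1 to 1 for ventilation in wild type lungs, 0 to 0 in Zmpste24-/- lungs, 1 to 1 for genotype at baseline, 2 to 3 under ventilation and 0 to 1 for the interaction; all genes past the threshold numbered 799 to 1307, 2432 to 3165, 646 to 1314, 1369 to 2510 and 8 to 118 in the same order. The 1597 genes for ventilation in wild type lungs became 923 with the 2 compared groups alone, and the 70 of the interaction became 152 over the median filter, 26 when quantile normalized again and 4 with all probes fitted. The cause of these shifts was not tested. Replicate numbers did not pair the arrays: deviations of same-numbered arrays from their group means correlated at -0.15 to 0.15 in 18 pairs, over 0.1 in 2 of them, and not every array correlated best with its own number. With the number as a replicate block, the interaction gave 43 genes, and members past the threshold numbered 1, 0, 1, 3 and 0 in the order above. Low signal limits Gp5, Gp6, Treml1 and Clec1b, whose group means of 5.28 to 6.19 lay close to the array medians, which are taken over all probes. By their means over the 12 arrays, these genes lay under the median of the 22180 genes.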
